A study of Homo sapiens with 2 samples.

Results

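Peaks of open chromatin were described at 9 widely studied long noncoding RNA (lncRNA) genes, MALAT1, NEAT1, GAS5, SNHG1, HOTAIR, HOTTIP, LINC-PINT, TUG1 and DSCAM-AS1, in the breast cancer cell line CAMA-1. The genes were chosen by name, not by their level, from the 62663 genes of GENCODE release 44, which types 8 of the 9 as lncRNA and TUG1 as protein-coding. A locus was the annotated gene body with 10 kb on either side, and the 9 loci together spanned 580175 bp of hg38. They held 150 of the 245736 peaks of replicate 1 and 160 of the 259745 peaks of replicate 2. Peaks that shared at least 1 bp between replicates were merged, which gave 129 regions in the loci out of 215195 in the genome.

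lncRNAs are transcribed and mostly spliced like messenger RNAs but are not known to act through a protein product. Some build or occupy bodies in the nucleus, some carry small nucleolar RNAs (snoRNAs) in their introns, and some are read from the HOX clusters beside the genes that pattern the body axis. In open chromatin data a gene that is being transcribed, or is ready to be, usually has an accessible site at its start, although an accessible start does not by itself show how much RNA is made.

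CAMA-1 is an estrogen receptor-positive cell line of luminal epithelial type, and it was grown as an adherent culture without treatment. Accessible chromatin was profiled by ATAC-seq, sequencing of DNA opened to a transposase, which uses the Tn5 transposase to insert adapters where DNA is accessible. The assay was run on nuclei of 2 biological replicates, which form 1 condition of 1 cell line, so there was no control group and no test between groups. Values are given per replicate, and the spread is that of these 2 libraries. The deposited lists give each peak a fold enrichment, the ratio of the stacked reads at its highest base to the background of the peak caller, with 1 read added to each. The ratio moved in steps of 0.2301 in replicate 1 and 0.221 in replicate 2, and the height of a peak in reads was recovered from the step. The background was 3.35 reads in replicate 1 and 3.52 in replicate 2 for all peaks. Fold enrichment was therefore not adjusted for the number of copies of each locus. The paper reports copy-number aberrations in CAMA-1, and their part in the levels of the genes was not tested. The median peak of either replicate was 35 reads high, and the median fold enrichment was 8.28 in replicate 1 and 7.96 in replicate 2. As a check of the label, all 10 luminal epithelial marker genes, among them ESR1, GATA3 and FOXA1, had a peak at a transcription start site (TSS) in both replicates, with a median fold enrichment of 90.8. The 3 basal markers also had one, with a median of 10.3. A TSS peak was present at all 4 mesenchymal markers (median 59.7) and at 2 of 5 blood markers, while PTPRC, CD3E and SPI1 had none, so a TSS peak alone did not separate cell types.

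The stretches around the annotated start differed widely in base composition among the 9 genes. Below, 5 of them are shown from 250 bases before to 50 bases from the most 5′ TSS, on the strand of the gene in hg38. They were picked to set the tallest start peaks (MALAT1, NEAT1) beside a start shared with a coding gene on the other strand (TUG1, SNHG1) and a start without a peak (HOTTIP). Capitals mark exact matches on either strand to CCAAT (the NF-Y motif), TATAAA (the TATA box), CACGTG (an E box) and GCGCATGC (the NRF1 motif), and a match is a description of the letters, not a bound site. Their positions are chr11:65497390-65497689 (plus) for MALAT1, chr11:65422524-65422823 (plus) for NEAT1, chr22:30968995-30969294 (plus) for TUG1, chr11:62855904-62856203 (minus) for SNHG1 and chr7:27198325-27198624 (plus) for HOTTIP.
MALAT1: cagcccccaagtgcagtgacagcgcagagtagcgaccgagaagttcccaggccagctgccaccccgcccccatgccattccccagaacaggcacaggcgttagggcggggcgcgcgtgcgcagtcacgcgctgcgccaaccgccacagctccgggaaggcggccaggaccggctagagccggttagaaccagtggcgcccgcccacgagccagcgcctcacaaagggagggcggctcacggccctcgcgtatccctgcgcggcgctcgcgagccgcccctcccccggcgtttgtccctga
NEAT1: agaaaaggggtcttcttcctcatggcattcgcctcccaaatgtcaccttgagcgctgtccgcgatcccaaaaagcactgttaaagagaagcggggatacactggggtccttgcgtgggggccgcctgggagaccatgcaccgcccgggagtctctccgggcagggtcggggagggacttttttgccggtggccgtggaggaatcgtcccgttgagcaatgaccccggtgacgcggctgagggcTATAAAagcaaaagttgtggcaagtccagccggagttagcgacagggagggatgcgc
TUG1: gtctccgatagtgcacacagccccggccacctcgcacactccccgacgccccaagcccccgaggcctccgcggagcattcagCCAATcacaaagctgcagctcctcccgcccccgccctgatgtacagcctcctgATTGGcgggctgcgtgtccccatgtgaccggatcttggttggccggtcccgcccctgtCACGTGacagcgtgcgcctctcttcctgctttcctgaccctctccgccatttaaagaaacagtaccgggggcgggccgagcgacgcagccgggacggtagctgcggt
SNHG1: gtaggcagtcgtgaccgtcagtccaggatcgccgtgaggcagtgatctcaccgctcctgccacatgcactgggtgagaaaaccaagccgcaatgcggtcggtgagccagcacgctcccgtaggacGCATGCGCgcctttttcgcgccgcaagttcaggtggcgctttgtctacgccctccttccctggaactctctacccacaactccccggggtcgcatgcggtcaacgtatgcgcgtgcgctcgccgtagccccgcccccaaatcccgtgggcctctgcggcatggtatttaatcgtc
HOTTIP: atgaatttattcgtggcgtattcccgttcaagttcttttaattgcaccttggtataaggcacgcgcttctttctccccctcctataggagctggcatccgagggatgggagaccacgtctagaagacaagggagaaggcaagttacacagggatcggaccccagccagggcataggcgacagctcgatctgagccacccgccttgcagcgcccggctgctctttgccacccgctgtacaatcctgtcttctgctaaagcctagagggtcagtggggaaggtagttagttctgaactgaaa

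In the 5 windows shown, the TATAAA of NEAT1 began 7 bases before the TSS. TUG1 held CCAAT matches 168 and 115 bases before the TSS and a CACGTG 57 bases before it, and SNHG1 held GCGCATGC 125 bases before it. MALAT1 and HOTTIP held none of these 4 motifs. Among the windows not shown, GAS5 had CCAAT matches 248, 198 and 28 bases before its TSS, LINC-PINT had a CCAAT 207 bases before and HOTAIR had a CACGTG 178 bases before. CCAAT is common, in 35.4% of lncRNA and 35.9% of protein-coding windows of the same kind. CACGTG was found in 2 of 9 members (5.43% of lncRNA and 8.36% of coding windows), and TATAAA in 1 of 9 (15.9% and 10.8%). GCGCATGC was found in 1 of 9, against 1.57% of lncRNA and 3.78% of coding windows. GCCNNNGGC, the AP-2 motif, was found in NEAT1 alone and was left in lower case (14.4% and 25.4%). An exact estrogen response element, the palindrome bound by the estrogen receptor, was in none of the 9 windows, as in nearly all windows genome-wide (0.0583% of lncRNA windows held one). The share of G and C reached 73.33% in HOTAIR and was 49% in GAS5, with a median of 63% over the 9 genes, against 49% for all lncRNA genes and 60.3% for protein-coding genes. The CpG ratio, the observed count of CpG dinucleotides over that expected from the base content, was 0.507 in GAS5 and 1.05 in SNHG1. Its median of 0.648 lay nearer to that of protein-coding genes (0.696) than to that of lncRNA genes (0.291). At the annotated TSS nearest to the midpoint of each strongest peak, which was another TSS in 7 of the 9 genes, the medians were instead 50.3% and 0.424.

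A TSS peak, meaning a peak within 1 kb of any annotated TSS of the gene, was present in both replicates at 9 of 9 members. Across GENCODE, 43.8% of lncRNA genes and 79.3% of protein-coding genes had one. Members carry from 1 (DSCAM-AS1) to 40 (MALAT1, LINC-PINT) annotated TSSs, and each TSS adds a window in which a peak can be found. With the most 5′ TSS alone, 8 of 9 members had a peak in both replicates, where 40.9% of lncRNA genes did. The exception was HOTTIP, where 1521 bp in replicate 1 and 1505 bp in replicate 2 separated that TSS from the nearest peak. The median fold enrichment of the strongest TSS peak was 62.5 ± 0.158 (SD, n = 2) over the members, 32.1 ± 0.851 over all lncRNA genes with a TSS peak and 52.5 ± 1.08 over protein-coding genes. The median of the 9 members is the value of DSCAM-AS1 in both replicates. Its SD is thus that of this gene and not a spread of the group, whose means ran from 14.1 (HOTTIP) to 264.3 (MALAT1). Of the members, 8 were above the lncRNA median in both replicates by any annotated TSS, and HOTTIP was below it. At the most 5′ TSS the lncRNA medians were 32.0 in replicate 1 and 33.2 in replicate 2. HOTAIR (29.0 and 31.2) was below them in both replicates. SNHG1 (31.5 and 40.9) and LINC-PINT (26.0 and 33.4) were below in replicate 1 alone. MALAT1, NEAT1, GAS5, TUG1 and DSCAM-AS1 stayed above in both.

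**Figure D1:**
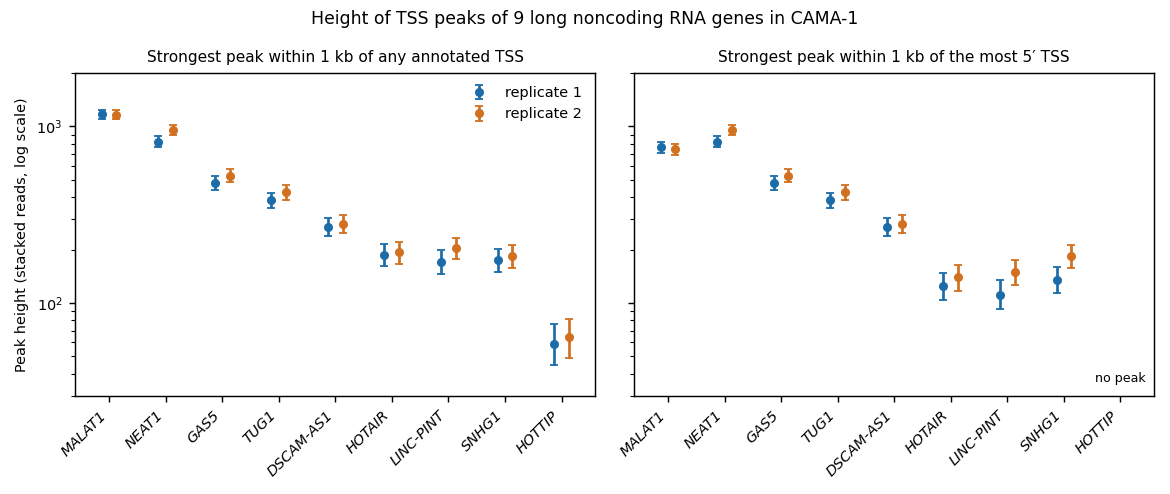
Height of the strongest TSS peak of each gene in reads (log scale), for any annotated TSS (left) and for the most 5′ TSS (right), with replicate 1 in blue and replicate 2 in orange and bars for exact Poisson 95% intervals, which cover counting error only. Heights ran from 1174 and 1167 reads at MALAT1 to 59 and 64 at HOTTIP, which had no peak at its most 5′ TSS.

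MALAT1 and NEAT1 are neighbours on chromosome 11, and both RNAs stay in the nucleus. MALAT1 RNA gathers in nuclear speckles, where splicing factors are stored, and NEAT1 RNA is the scaffold of paraspeckles. These genes had the tallest TSS peaks and the widest accessible regions of the 9.

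MALAT1 (ENSG00000251562.11, chr11:65497640-65508073, plus strand) had a strongest TSS peak of 270 in fold enrichment in replicate 1 and 258 in replicate 2. Its height was 1174 reads (exact Poisson 95% interval 1108 to 1243) and 1167 reads (1101 to 1236), so the replicates differed by less than counting error. Of the 8266 genes ranked together, namely the lncRNA genes with a TSS peak and TUG1, it came 6th. The next gene down was TALAM1, the antisense transcript of MALAT1, whose TSS lies under the same peak and which therefore had the same value. This peak did not lie at the gene's start. It formed a region 10018 bp wide, chr11:65500030-65510047, which ran over exons of MALAT1 and past the 3′ end of the gene, with its midpoint 7398 bp downstream of the most 5′ TSS. At the most 5′ TSS a separate peak reached 176 and 164 (763 and 741 reads), and it was shared with the TSS of ENSG00000270117, an uncharacterised lncRNA gene on the opposite strand. By this start peak MALAT1 came 101st of the 7712 genes ranked at the most 5′ TSS. The start site that RefSeq gives for MALAT1, 1405 bp from that of GENCODE, lay inside the same peak in both replicates. Upstream, a further region of 7863 bp, chr11:65487058-65494920, over LINC02736 reached 200.4 and 208.7. Peaks covered 97.4% of the MALAT1 body in replicate 1 and 90.9% in replicate 2. Among the 13738 lncRNA genes of at least 2 kb, 32 (0.233%) were covered over at least 90% of their length.

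NEAT1 (ENSG00000245532.11, chr11:65422774-65445540, plus strand) had its strongest peak over the start, with a fold enrichment of 189 in replicate 1 and 212 in replicate 2. The heights were 821 reads (766 to 879) and 958 reads (898 to 1021). It is the single member whose strongest peak differed between replicates by more than counting error, with replicate 2 higher, and it ranked 52nd. The region, chr11:65420881-65431274, was 10394 bp wide, the widest of the 129, was shared with the TSS of ENSG00000290057, another lncRNA gene, and took in all 9 annotated TSSs of the gene. Downstream, 8 further regions lay over exons of NEAT1, with medians of 15.8 and 10.9. The strongest of them, 7452 bp wide and crossing the 3′ end of the gene at chr11:65441811-65449262, reached 74.8 and 73.6. A region of 6256 bp just upstream, chr11:65414546-65420801, reached 169.6 and 180.2. Together, peaks covered 86.0% and 75.8% of the gene body. NEAT1 also holds the microRNA gene MIR612.

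Regions wider than 5 kb made up 257 of the 215195 regions of the genome, or 0.119%. Of the 129 regions in the loci 5 were that wide, and all 5 belonged to MALAT1 or NEAT1. The stretch from 10 kb before NEAT1 to 10 kb after MALAT1, 105300 bp long, held 32 regions, 6 of them wider than 5 kb. Peaks covered 65.5% of it in replicate 1 and 61.9% in replicate 2. The list of peaks gives 1 height for each peak, so how accessibility was spread inside these wide regions was not resolved.

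**Figure D2:**
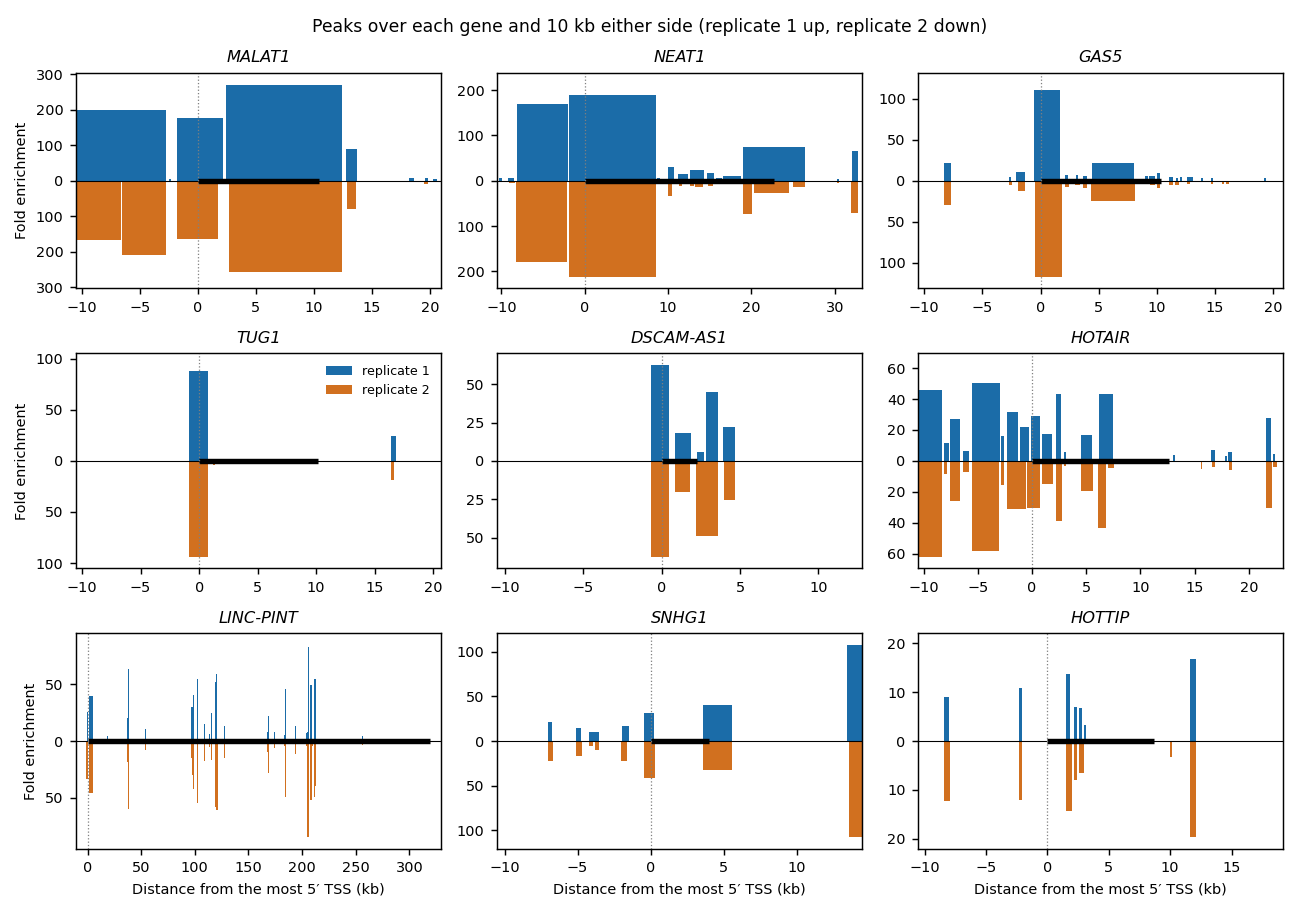
Fold enrichment of every peak in the 9 loci against the distance from the most 5′ TSS in the direction of transcription (kb), with replicate 1 upward, replicate 2 downward, the width of a bar showing the width of the peak and the black line marking the gene body; the vertical scale differs between panels. Wide peaks cover MALAT1 and the first part of NEAT1, TUG1 has its strong peak at the start alone, and LINC-PINT has many narrow peaks along 318913 bp.

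GAS5 and SNHG1 are snoRNA host genes, whose introns carry snoRNAs that guide the modification of ribosomal RNA, and whose spliced transcripts are noncoding. GAS5 (ENSG00000234741.10, chr1:173858559-173868882, minus strand) had a TSS peak of 111 in fold enrichment in replicate 1 and 117 in replicate 2, with heights of 481 and 527 reads. The value was above that of TUG1 and below that of NEAT1 in both replicates, and GAS5 ranked 535th. Its region, chr1:173867078-173869426, also covered the TSS of ZBTB37, a zinc finger protein gene on the opposite strand whose nearest TSS was 87 bp away, and the level cannot be told apart between the pair. The peaks over the rest of GAS5 were weaker. A region 3825 bp wide inside the gene, chr1:173860751-173864575, over the TSS of GAS5-AS1, reached 22.1 and 24.8, and the remaining 6 regions called TSS or body regions lay between 3.54 and 9.66. Peaks covered 68.6% and 73.9% of the gene.

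SNHG1 (ENSG00000255717.9, chr11:62851978-62855953, minus strand) had modest TSS peaks at either end of the gene. At the most 5′ TSS the fold enrichment was 31.5 in replicate 1 and 40.9 in replicate 2 (136 and 184 reads), in chr11:62855671-62856431. At the 3′ end, beside other annotated TSSs, it was 40.5 and 32.9 (175 and 148 reads), in chr11:62850349-62852345. The order of the ends thus turned between the replicates, and neither end can be called the stronger. Its start was shared with SLC3A2, which encodes the heavy chain of amino acid transporters and is read from the other strand 51 bp away. The strongest region in the locus, at 107.0 and 107.5, lay in the flank over the TSS of WDR74, a ribosome assembly gene. Although both are snoRNA hosts, GAS5 had a higher TSS peak than SNHG1 in each replicate, and the ranges of the 2 genes did not overlap.

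HOTAIR and HOTTIP are transcribed within the HOXC and HOXA clusters and are known for binding complexes that modify histones, HOTAIR with repressive and HOTTIP with activating complexes. HOTAIR (ENSG00000228630.7, chr12:53962308-53974956, minus strand) had 6 TSS regions and 10 flank regions, spread over the locus rather than gathered at the start. Its strongest TSS peak, chr12:53967412-53968830, lay inside the gene and reached 43.5 in replicate 1 and 43.1 in replicate 2 (188 and 194 reads). A region at 43.3 and 39.1, chr12:53972155-53972783, lay at the TSS of HOXC11, a homeobox gene on the opposite strand. Near the most 5′ TSS the strongest peaks were 29.0 and 31.2 (125 and 140 reads), but those peaks of the 2 replicates did not overlap each other. Higher values were found upstream of the gene, at 50.2 and 58.6 in chr12:53977950-53980493 and at 45.8 and 62.1 over the TSSs of HOXC10 and HOXC-AS3. HOTAIR was covered by peaks over 37.4% and 39.1% of its length.

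HOTTIP (ENSG00000243766.8, chr7:27198575-27207259, plus strand) had the weakest TSS peak of the 9, with a fold enrichment of 13.8 in replicate 1 and 14.4 in replicate 2 (59 and 64 reads). It ranked 5820th of 8266, well below the lncRNA median of 32.1. The peak, chr7:27200080-27200619, held the start site that RefSeq gives for HOTTIP, 1846 bp from that of GENCODE, and lay within 1 kb of a TSS of HOXA13, a homeobox gene on the opposite strand. No peak of the locus was high, since the strongest, chr7:27210192-27210644 in the downstream flank, reached 16.8 and 19.7. HOTAIR exceeded HOTTIP at the TSS in both replicates, and their ranges did not overlap.

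LINC-PINT and TUG1 are both described as targets of p53, and their RNAs are linked to gene silencing by Polycomb complexes. Their loci had opposite layouts. LINC-PINT (ENSG00000231721.8, chr7:130791264-131110176, minus strand) is by far the longest of the 9 genes, at 318913 bp, and held 58 of the 129 regions, 52 of them in the gene body away from any of its TSSs. Of those 52, 50 covered no exon of LINC-PINT. The strongest, chr7:130903982-130905098, stood 205636 bp downstream of the most 5′ TSS, inside an intron and within LINC00513, a lncRNA gene on the other strand, and reached 83.1 in replicate 1 and 84.9 in replicate 2. Next came chr7:131071955-131072431 at 63.3 and 60.4 and chr7:130988686-130990036 at 59.6 and 60.6. These intronic regions were stronger in both replicates than any TSS peak of the gene. The strongest TSS peak, 39.8 and 45.6 (172 and 205 reads), lay about 3217 bp into the gene and held the RefSeq start site. At the most 5′ TSS the peak reached 26.0 and 33.4 (112 and 150 reads) and was shared with MKLN1, which encodes muskelin, with TSSs as close as 21 bp. Peaks covered 9.54% and 10.2% of the gene, and the density of 1.71 regions per 10 kb was below that of every other member except TUG1. The microRNA genes MIR29A and MIR29B1 lie within it.

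TUG1 (ENSG00000253352.10, chr22:30969245-30979395, plus strand) had 2 regions. The TSS region, chr22:30968366-30969996, reached 88.1 in replicate 1 and 94.0 in replicate 2 (382 and 424 reads), which placed it 1014th. It was shared with MORC2, a chromatin ATPase gene whose TSS lies 471 bp away on the opposite strand, so the peak cannot be assigned to either gene. The other region, in the downstream flank, reached 24.6 and 18.8. Peaks covered 7.38% and 9.53% of TUG1, the lowest share of the 9 genes. In replicate 1 all of that was the start peak, and in replicate 2 a weak peak of 4.20 inside the gene added to it. Both LINC-PINT and TUG1 start beside a coding gene, and the start peak of TUG1 was the higher in each replicate.

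DSCAM-AS1 (ENSG00000235123.5, chr21:40383083-40385358, plus strand) lies inside DSCAM, a neuronal adhesion gene, and its RNA is known as a marker of luminal, estrogen receptor-positive breast cancers. It has a single annotated TSS, and the peak there reached 62.4 in replicate 1 and 62.6 in replicate 2 (270 and 282 reads). In fold enrichment its SD over the replicates, 0.158, was the lowest of the 9. It ranked 2126th, above the lncRNA median of 32.1 in both replicates. Along the gene, further regions reached 17.9 and 20.6, then 44.9 and 48.9 at chr21:40385241-40386704 across the 3′ end, and 22.3 and 25.7 beyond it. Peaks covered 67.9% and 69.5% of its 2276 bp. Unlike 7 of the other members, DSCAM-AS1 had no gene on the opposite strand with a TSS within 1 kb.

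In order of the mean over replicates, the strongest TSS peaks were those of MALAT1 (264.3 ± 8.54, SD, n = 2, as for all that follow), NEAT1 (200.6 ± 16.2), GAS5 (113.8 ± 4.14), TUG1 (91.1 ± 4.14), DSCAM-AS1 (62.5 ± 0.158), HOTAIR (43.3 ± 0.260), LINC-PINT (42.7 ± 4.06), SNHG1 (40.7 ± 0.291) and HOTTIP (14.1 ± 0.401). HOTAIR and LINC-PINT, and LINC-PINT and SNHG1, had overlapping ranges and did not differ beyond their spread. The value of SNHG1 joins different peaks, the 3′ one in replicate 1 and the 5′ one in replicate 2, so its SD is not the spread of either peak, and at the most 5′ TSS it was 36.2 ± 6.64. All other neighbours in this order were apart in both replicates. At the most 5′ TSS the order changed, with NEAT1 (200.6 ± 16.2) ahead of MALAT1 (169.9 ± 8.28), and HOTAIR (30.1 ± 1.55) and LINC-PINT (29.7 ± 5.23) again overlapped at the lower end. The value of HOTAIR there also joins different peaks, which do not overlap each other, so its SD is not the spread of a single peak. With 2 replicates these orders are descriptions of the ranges. In the order of all ranked genes by the geometric mean of the fold enrichment over the 2 replicates, ENSG00000254973 (113.8) stood directly above GAS5, CPEB2-DT (91.0) directly above TUG1 and LINC02814 (62.5) directly above DSCAM-AS1, while ERRFI1-DT (42.6) tied with LINC-PINT.

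Of the strongest TSS regions, 3 of 9 lay within 1 kb of a protein-coding TSS, those of GAS5, TUG1 and HOTTIP. The count was 4 with replicate 2 alone, where the strongest peak of SNHG1 was the start it shares with SLC3A2. At the most 5′ TSS, GAS5, TUG1, SNHG1 and LINC-PINT shared the peak with a coding gene, whereas NEAT1, MALAT1, HOTAIR and DSCAM-AS1 did not.

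Each level at the most 5′ TSS was also set beside the median of the TSS peaks of protein-coding genes within 5 Mb. The NEAT1 peak was 4.37 times this median in replicate 1 and 4.77 times in replicate 2, and that of MALAT1 4.02 and 3.66 times. TUG1 (2.01 and 1.76) and DSCAM-AS1 (1.82 and 1.77) were also above the coding genes near them. GAS5 was close to its surroundings, at 1.04 and 1.10 times, because the 35 coding genes there had a median of 106.8 and 105.9, the highest of the 9 neighbourhoods. SNHG1 (0.729 and 0.932), HOTAIR (0.50 and 0.495) and LINC-PINT (0.459 and 0.562) were below. The rank of GAS5 among lncRNA genes thus went with a high level in its neighbourhood, and the part of that neighbourhood in it was not tested.

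**Figure D3:**
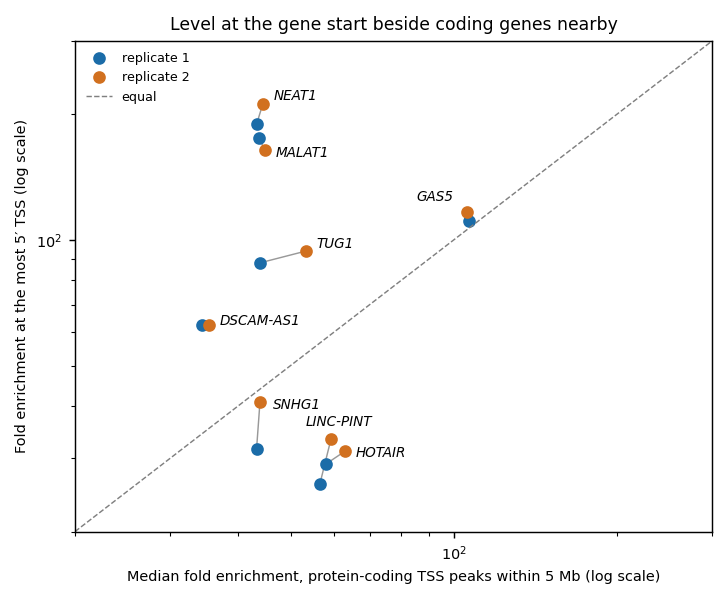
Fold enrichment of the peak at the most 5′ TSS against the median fold enrichment of TSS peaks of protein-coding genes within 5 Mb (both log scale), for the 8 genes with such a peak, with replicate 1 in blue, replicate 2 in orange and a thin line joining the replicates of a gene. NEAT1, MALAT1, TUG1 and DSCAM-AS1 lie above the dashed line of equal values, GAS5 lies just above it, and SNHG1, HOTAIR and LINC-PINT lie below.

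The share of the gene body under a peak separated the genes in another way. The mean of the replicates was 94.1% ± 4.6 (SD, n = 2) in MALAT1, 80.9% ± 7.23 in NEAT1, 71.2% ± 3.75 in GAS5, 68.7% ± 1.15 in DSCAM-AS1 and 38.3% ± 1.21 in HOTAIR. These 5 lay above the 90th percentile of all lncRNA genes, 34.3%. SNHG1 (15.97% ± 0.569), HOTTIP (11.7% ± 1.71), LINC-PINT (9.87% ± 0.460) and TUG1 (8.45% ± 1.52) lay between that percentile and the median of 1.67%. HOTAIR and LINC-PINT, whose TSS levels overlapped, were therefore far apart in cover. Gene length runs from 2276 bp in DSCAM-AS1 to 318913 bp in LINC-PINT, and a peak at the start takes a larger share of a short gene.

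**Figure D4:**
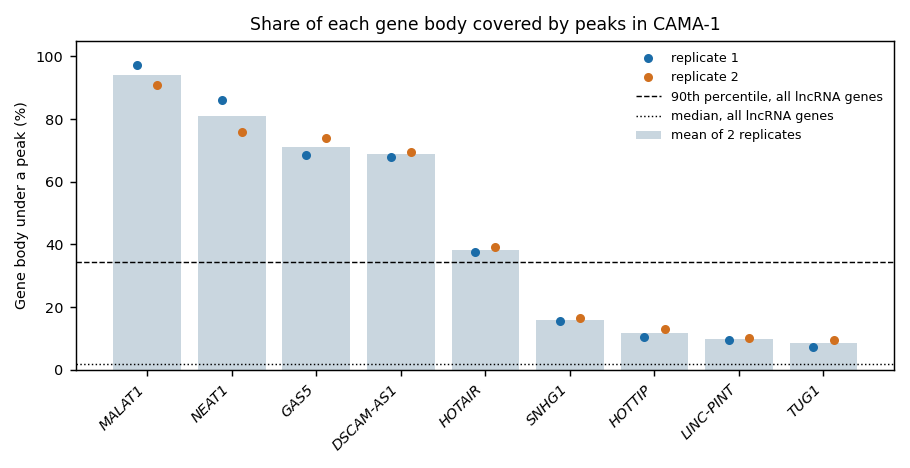
Share of each gene body covered by peaks (%), with bars for the mean of the 2 replicates and points for each replicate; the lines mark the median and the 90th percentile of all lncRNA genes. MALAT1, NEAT1, GAS5, DSCAM-AS1 and HOTAIR stand above the upper line at 34.3% and the other 4 genes below it.

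Related genes were described from 4 lists. Of 23 other snoRNA host genes, 23 had a TSS peak in both replicates, with a median fold enrichment of 67.0 ± 4.34 (SD, n = 2), and SNHG10 (159), SNHG19 (149.7) and DANCR (149) were the highest. GAS5, at 113.8, lay above and SNHG1, at 40.7, below the median of this list. Of 16 other noncoding genes of the HOX clusters, 10 had a TSS peak, with a median of 32.6 ± 2.43, and the highest were HOXC13-AS (54.9), HOXC-AS3 (53.3) and HOXC-AS2 (46.9), all of the HOXC cluster that holds HOTAIR. HOTAIRM1, HOXA10-AS, HOXA11-AS, HOXB-AS2, HOXB-AS4 and HAGLROS had none in either replicate. Of 20 other well-studied lncRNA genes, 18 had a TSS peak, with a median of 51.6 ± 0.732, led by OIP5-AS1 (113.5), CRNDE (106) and KCNQ1OT1 (96.9), while H19, an imprinted gene, and LINC-ROR had none. GENCODE types TINCR, among those with a peak, as protein-coding. All 10 genes for paraspeckle proteins, the partners of NEAT1 RNA, had a TSS peak, with a median of 52.0 ± 0.691, beside 52.5 for all protein-coding genes. RBM14 (224) was the highest of them, followed by SMARCA4 (108) and MATR3 (70.2). MATR3 had the same values as SNHG4 of the snoRNA host list. Among the genes named as highest in the noncoding lists, a protein-coding TSS lay within 1 kb of SNHG10, SNHG19, HOXC13-AS, HOXC-AS3 and OIP5-AS1. Their levels were not assigned to either gene. DANCR, HOXC-AS2, CRNDE and KCNQ1OT1 had no such neighbour. For these counts the shares across GENCODE are the same 43.8% of lncRNA and 79.3% of protein-coding genes. At the most 5′ TSS alone, the median was 68.8 for snoRNA hosts (22 of 23) and 42.4 for noncoding HOX genes (7 of 16). It was 49.1 for the other well-studied genes (17 of 20) and 48.8 for paraspeckle protein genes (10 of 10). The members (76.8) were then above the snoRNA hosts, and the HOX genes above the lncRNA median of 32.6. These medians leave out genes without a peak there, which were low by any TSS. Among the members this was HOTTIP (14.1), and among the snoRNA hosts SNHG14 (10.6). From the HOX genes HOXA-AS2 (3.72), HOXA-AS3 (25.1) and HOXB-AS3 (30.1) dropped out. The new order therefore does not show higher peaks. At that TSS 40.9% of lncRNA and 71.7% of protein-coding genes had a peak.

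**Figure D5:**
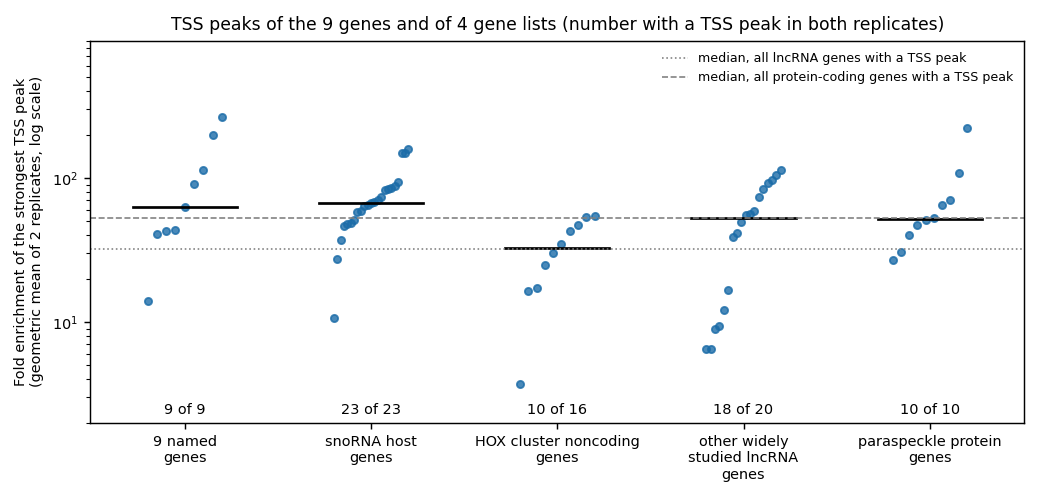
Fold enrichment of the strongest TSS peak (geometric mean of the 2 replicates, log scale) for the 9 genes and 4 lists of related genes, with 1 point per gene with a TSS peak in both replicates, a bar for the median and dotted and dashed lines for the medians of all lncRNA and all protein-coding genes. With any annotated TSS the snoRNA hosts have the highest median, 67.0 as a mean of the replicates. The noncoding HOX genes, at 32.6, sit at the lncRNA median of 32.1.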

How the data were processed

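ATAC-seq libraries of 2 CAMA-1 replicates were analysed from their peak lists. Per the submitters' processing notes, the authors used Trim Galore 0.6.5, Bowtie2 2.3.5.1, MACS2 2.2.6 and hg38, and called peaks in each replicate. The authors deposited a fold enrichment (a ratio) for every peak, with its score, −log10 p-value and −log10 q-value, without summits. Depth is not part of these lists, and duplicates or blacklisted regions are not given in the sources used here.

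Fold enrichments were whole multiples of a step in 100% of peaks (tolerance 0.01 step), and height was the multiple minus 1 read. Exact Poisson 95% intervals on heights cover counting error only. Genes came from GENCODE release 44, start sites of 6 of 9 members also from RefSeq (GRCh38.p14), and sequences from hg38. Motifs were exact matches on both strands. With 1 condition, no test was run. Medians are means of the replicates' medians. Computation used numpy 2.4.6, scipy 1.17.1 and, for plots, matplotlib 3.10.9 under Python 3.11.15, and the functions were tested on simulated data.

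The members, lists and alternatives were chosen with earlier results of these data known. Named were all members, genes with a TSS within 1 kb of theirs, neighbours in rank, the strongest regions, and from each list the 3 highest genes and those without a peak. Genes at other regions described (such as LINC02736, HOXC10, WDR74 and GAS5-AS1) were named after the values were seen. The start sequence of 1 member is not reported here. Other assays were not analysed here.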

Additional observations from a re-analysis of the deposited data

How the results depend on the processing

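Over 31 results and 132 alternatives, 111 values were scored as stable and 21 as moved. Stable meant within the replicate spread or within 1.5 times a count. For base composition, which has no replicate spread, it meant within the SD over the 9 genes. The median CpG ratio thus counted as stable (SD 0.320), although it fell from 0.424 to 0.319. That fall came with a window of 500 bp on either side of the TSS. Reversals of an order were not scored. For a value averaged over the 2 replicates, leaving out 1 of them cannot move it beyond their SD. Those alternatives were therefore bound to count as stable. The count of regions in the loci, 129, became 39 with the 50000 strongest peaks of each replicate and 270 with 50 kb on either side, and with 1 replicate left out it was 150 or 160. The median TSS fold enrichment, 62.5, became 76.8 both with the 50000 strongest peaks and with the single most 5′ TSS, since each leaves out HOTTIP, for which neither gives a value. Searching whole regions in place of their central 300 bp raised the number of regions with a motif from 11 to 24 (AP-1), 11 to 29 (AP-2), 15 to 27 (FOX), 3 to 11 (GATA), 7 to 14 (ETS), 4 to 7 (NRF1), 40 to 63 (NF-Y), 12 to 33 (TATA), 6 to 20 (YY1), 7 to 21 (E box) and 1 to 7 (CTCF), as longer sequence holds more matches. Of the values of single genes 6 moved, 4 of them with the most 5′ TSS alone. The others were SNHG1 with TSS peaks within 100 bp (36.2 in place of 40.7) and HOTAIR within 3 kb (46.6 in place of 43.3). The count of 9 members with a TSS peak was 9 with either replicate alone, and it was 8 with the 50000 strongest peaks and at the most 5′ TSS. No paired analysis was possible because the 2 libraries share 1 condition.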

Other observations

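Motifs were also counted in the central 300 bp of the 129 regions of the 9 loci, beside all 215195 regions of the genome. TGTTTAC, a motif of forkhead factors such as FOXA1, was in 15 of 129 (11.6%, against 7.38% of all regions). Of these, 14 were among the 58 regions of LINC-PINT, and outside that gene it was in 1 of 71 (1.41%), below the share of all regions. CCGGAAG, the ETS motif, was in 7 (5.43% against 2.21%). GCGCATGC, the NRF1 motif, was in 4 (3.1% against 0.526%), all of them outside LINC-PINT (5.63% of those 71). CACGTG was in 7 (5.43% against 4.79%), TATAAA in 12 (9.3% against 13.1%) and AAGATGG, the YY1 motif, in 6 (4.65% against 5.44%). TGANTCA, the AP-1 motif, was in 11 (8.53% against 13.5%) and GCCNNNGGC in 11 (8.53% against 15.6%). AGATAAG, the GATA motif, was in 3 (2.33% against 3.64%), and CCAAT was in 40 (31.0% against 32.9%, and 33.8% outside LINC-PINT). The motif of CTCF, which anchors chromatin loops, was in 1 region (0.775% against 5.64%), in the flank of HOTAIR at chr12:53952861-53953410. An exact estrogen response element was in 0 of 129 regions, and in 194 of all regions (0.0902%). These counts weigh LINC-PINT most and are descriptions without a test.

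Of the peaks in the loci, 14 were called in replicate 1 alone and 19 in replicate 2 alone. LINC-PINT held 7 of the former and 14 of the latter. In TUG1, DSCAM-AS1, SNHG1 and NEAT1 no peak was called in replicate 1 alone.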
